A study of Homo sapiens with 6 samples.

Results

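The transcription factor NRF2, encoded by *NFE2L2*, its inhibitor *KEAP1* and 8 antioxidant genes that NRF2 is known to drive (*HMOX1*, *NQO1*, *GCLC*, *GCLM*, *TXNRD1*, *SRXN1*, *TXN* and *PRDX1*) were examined in NCI-H660 cells given pyrvinium pamoate (PP) or PBS. The genes were chosen by symbol, and all 10 were found among the 17177 genes of the deposited table. NCI-H660 is an established cell line from a neuroendocrine prostate cancer, and PP is an anthelmintic drug that the study tested as an inhibitor of the RNA-binding protein ELAVL3. Both groups were labelled wild-type NCI-H660 cells on day 3, with 3 libraries treated with PBS and 3 treated with PP, and all 6 libraries came from 1 cell line. The dose of PP given to these cells is not given in the sources used here. The labels and the study's legends give 3 libraries per treatment, which the legends call independent, where the methods speak of duplicates. What made the libraries independent is not stated, so P values measure the spread between these libraries.

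NRF2 is a leucine zipper factor that the adaptor protein KEAP1 hands to the CUL3 ubiquitin ligase for destruction in unstressed cells. Oxidants and electrophiles modify cysteines of KEAP1, NRF2 then accumulates, pairs with small MAF proteins and binds antioxidant response elements (AREs) near genes for glutathione synthesis, thioredoxin reduction, quinone reduction and haem breakdown. Because that control acts largely on the protein, the *NFE2L2* transcript measured here is not a measure of NRF2 activity. *HMOX1*, *GCLC*, *GCLM* and the cystine carrier gene *SLC7A11* are also known to respond to other stress factors.

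The values are FPKM, fragment counts scaled to the length of the gene and to the mapped fragments of the library, so levels can be compared between genes. Whole counts could be recovered from the FPKM, and they came to between 29064253 and 32481171 per library. A log2 fold change here is the mean of log2(FPKM + 1) with PP less that with PBS, a scale on which low genes change less than in FPKM. The differences were fitted with limma to the 11726 genes whose mean FPKM reached 1, and their P values were adjusted over all of them by the Benjamini-Hochberg method. In bulk libraries, a change in the share of cells that express a gene and a change in its RNA per cell cannot be told apart. The neuroendocrine markers *SYP*, *CHGA*, *CHGB*, *ENO2*, *NCAM1*, *INSM1*, *SCG2* and *SCG3* were all expressed. At a limma adjusted p under 0.05, *SYP*, *CHGA*, *CHGB* and *ENO2* were lower with PP and *INSM1* and *SCG2* were higher. *NCAM1* and *SCG3* did not pass. *CHGA*, a granule protein gene, fell from 43.3 ± 0.870 (SD, n = 3) to 24.8 ± 1.09 FPKM (SD, n = 3), and *SCG2*, another granule protein gene, rose from 8.20 ± 0.622 (SD, n = 3) to 13.5 ± 1.07 (SD, n = 3). The part of these markers in the results was not tested. Markers of fibroblasts (5 genes), leukocytes (4) and endothelium (3) each summed to under 5 FPKM in every library. The highest of each list was *COL1A1* (mean FPKM 3.30 with PBS and 4.16 with PP), *CD68* (1.41 and 1.09) and *CDH5* (3.60 and 2.52). *PTPRC*, *DCN* and *PECAM1*, of the same lists, were all at under 0.05 FPKM on average in either group. The luminal prostate marker *TMPRSS2* was low in both groups, at 1.02 ± 0.252 FPKM in the PBS libraries and 0.459 ± 0.134 in the PP libraries (SD, n = 3 each).

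The core of the ARE can be written TGACNNNGC, and it was searched on both strands from 250 bases before to 50 bases after the start sites that RefSeq lists on GRCh38.p14. These windows were found for 8 of the 10 genes, all but *HMOX1* and *PRDX1*, and a match was found at *GCLM*, *KEAP1* and *TXNRD1*. Since some genes have more than 1 start site, the 8 genes have 11 windows, of which 4 held a match. Across all 35116 windows of the same length 13.3% held one, and across the 13926 windows of the genes tested 14.5% did. The matches are shown because they are the stretches near these genes' starts that carry the letters NRF2 is known to bind. A match is a description of the letters and not a measured site. The capitals mark the core, and each line is read 5′ to 3′ on the strand named.
*GCLM*, plus strand, chr1:93909446-93909474: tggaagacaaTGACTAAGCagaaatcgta
*KEAP1*, plus strand, chr19:10502784-10502812: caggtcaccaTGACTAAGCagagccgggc
*KEAP1*, minus strand, chr19:10502807-10502835: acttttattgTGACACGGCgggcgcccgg
*TXNRD1*, plus strand, chr12:104215670-104215698: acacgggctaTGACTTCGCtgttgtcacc
*TXNRD1*, minus strand, chr12:104215761-104215789: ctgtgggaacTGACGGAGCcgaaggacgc
*TXNRD1*, minus strand, chr12:104286920-104286948: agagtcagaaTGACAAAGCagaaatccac
The cores of *GCLM* and of the first *KEAP1* line have the same letters, TGACTAAGC. The *GCLM* core began at -34 from the start site and the cores of *KEAP1* at -31 and -54. The *KEAP1* start used for these positions lies inside the span of the gene given below, not at its outer end, 10503356. *TXNRD1* has 2 listed starts far apart, with cores at -99 and -8 of the first and at -102 of the second. None of the 11 windows held the AP-1 letters TGANTCA, which were in 7.71% of all windows and 4.83% of those of the genes tested. None held the C/EBP-ATF letters TGATGNAA either, which were in 3.62% and 1.88%.

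Most of the genes were changed by PP. At a limma adjusted p below 0.05, 7 of the 10 genes were higher, *TXN* and *PRDX1* were lower, and *KEAP1* did not pass. The same threshold called 38.1% of all genes tested higher and 34.4% lower, so a call alone does not set a gene apart here, and the size of the change says more. *HMOX1*, *NFE2L2* and *GCLC* also passed the cutoff of the study's methods, which is P under 0.001 (taken as unadjusted) with a log2 fold change above 1, and 2.24% of all genes did so. In the lower direction 0 of the 10 were past it with limma and 0 with limma-voom on the recovered counts, against 2.93% of all genes. The 3 PP libraries lay entirely above or below the 3 PBS libraries in 9 of the 10 genes and in 75% of all genes. The median log2 fold change was 0.71 over the 10 genes and 0.02 over all genes tested.

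*NFE2L2*, the gene of the factor itself (NCBI gene 4780, chromosome 2 of GRCh38, 177230303 to 177264727), rose with PP. Its FPKM was 27.0, 24.4 and 25.2 in PBS replicates 1, 2 and 3, and 63.2, 67.4 and 67.9 in PP replicates 1, 2 and 3. Every PP library was far above every PBS library. The values rest on 2274 to 2658 counts in the PBS libraries and 6171 to 7074 in the PP libraries. The means were 25.5 ± 1.32 (SD, n = 3) and 66.1 ± 2.57 (SD, n = 3), a ratio of 2.59. On the log2 scale the change was 1.34 with a standard error of 0.05 (limma adjusted p = 3.8e-09), which placed *NFE2L2* at rank 115 from the top of the 11726 genes.

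The inhibitor gene *KEAP1* (NCBI gene 9817, chromosome 19, 10486125 to 10503356) did not pass the test. Its FPKM was 42.2, 46.3 and 47.8 with PBS and 48.2, 46.9 and 42.1 with PP, so the libraries were mixed. The log2 fold change was 0.01, with a standard error of 0.06, a limma adjusted p of 0.899 and a 95% confidence interval from -0.12 to 0.14. Counts of 3962 to 4527 per library stood behind it, and the interval lies below that of each of the 7 genes that rose. Its sign depended on the libraries used, at -0.042 without PBS replicate 1 and 0.066 without PP replicate 3.

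*HMOX1*, which encodes haem oxygenase 1, the inducible enzyme that breaks haem down to biliverdin, carbon monoxide and iron (NCBI gene 3162, chromosome 22, 35381096 to 35394207), had the highest log2 fold change of the 10. The PBS libraries held 13.5, 13.1 and 14.6 FPKM, and the PP libraries held 47.4, 45.0 and 43.9. The groups were far apart, with 598 to 710 counts per PBS library and 2113 to 2261 per PP library. Its log2 fold change of 1.65 (standard error 0.05, adjusted p = 1.21e-09 from limma) stood for a ratio of the means of 3.30, at rank 54 from the top. The 95% confidence interval, 1.54 to 1.76, lay above that of *NFE2L2*, 1.24 to 1.44.

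*NQO1*, the quinone reductase often read as a sign of NRF2 activity (NCBI gene 1728, chromosome 16, 69709401 to 69726560), rose least among the genes that rose. It was at 41.5, 41.2 and 44.0 FPKM with PBS and at 59.2, 59.9 and 60.8 with PP. The groups did not overlap and the PP libraries were close together, at 60.0 ± 0.825 (SD, n = 3) against 42.3 ± 1.56 (SD, n = 3). That is a log2 fold change of 0.50 with a standard error of 0.04 (limma adjusted p = 1.08e-06), at rank 1344 from the top.

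Glutathione synthesis starts with glutamate-cysteine ligase, which has a catalytic subunit from *GCLC* and a modifier subunit from *GCLM*. *GCLC* (NCBI gene 2729, chromosome 6, 53497341 to 53545101) was at 23.1, 24.1 and 21.8 FPKM with PBS and at 51.8, 49.6 and 53.4 with PP. The rise was shared by all 3 PP libraries, and the log2 fold change reached 1.13 with a standard error of 0.05 (limma adjusted p = 1.18e-08), a ratio of 2.24. *GCLM* (NCBI gene 2730, chromosome 1, 93885199 to 93909430) was the lowest of the 10 genes in both groups, at 6.11, 6.84 and 6.89 FPKM with PBS and 11.9, 10.3 and 11.3 with PP. Its groups were also apart, with 1207 to 1374 counts per PBS library and 1979 to 2357 per PP library. The log2 fold change of *GCLM* was 0.67 (standard error 0.06, adjusted p = 6.14e-06 from limma), a ratio of 1.68. Both subunit genes rose, *GCLC* by more, and their 95% confidence intervals (1.03 to 1.24 and 0.53 to 0.82) did not meet.

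Of the 4 genes of the cytosolic thioredoxin system among the 10, *TXNRD1* and *SRXN1* rose and *TXN* and *PRDX1* fell. *TXNRD1* encodes the cytosolic thioredoxin reductase, a selenoprotein that passes electrons from NADPH to thioredoxin (NCBI gene 7296, chromosome 12, 104215779 to 104350307). It was at 68.8, 71.1 and 74.6 FPKM with PBS and 139.3, 129.8 and 127.3 with PP. That rise had a log2 fold change of 0.88 (standard error 0.04, adjusted p = 4.86e-08 from limma), a ratio of 1.85, with no overlap between the groups. *SRXN1* encodes sulfiredoxin, which repairs peroxiredoxins whose cysteine has been over-oxidised (NCBI gene 140809, chromosome 20, 646615 to 653200). It held 14.8, 17.4 and 16.2 FPKM in the PBS libraries and 27.6, 28.0 and 27.5 in the PP libraries. The log2 fold change of *SRXN1* was 0.75 with a standard error of 0.06 (limma adjusted p = 9.12e-07), and the PP libraries differed from each other by far less than from the PBS libraries.

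*TXN*, the gene of cytosolic thioredoxin (NCBI gene 7295, chromosome 9, 110243810 to 110256507), fell with PP. The PBS libraries were at 139.4, 130.7 and 135.7 FPKM and the PP libraries at 83.5, 84.5 and 82.5. The groups were far apart, with a log2 fold change of -0.69 (standard error 0.03, adjusted p = 4.67e-08 from limma) and a PP mean 38.3% below the PBS mean. *PRDX1*, the gene of a cytosolic peroxiredoxin that reduces hydrogen peroxide with electrons from thioredoxin (NCBI gene 5052, chromosome 1, 45511051 to 45522890), fell further. It was at 244.9, 259.7 and 264.3 FPKM with PBS and 138.7, 126.0 and 128.5 with PP. Its log2 fold change of -0.96, with a standard error of 0.04 (limma adjusted p = 2.53e-08), was at rank 384 from the bottom, with a PP mean 48.8% below the PBS mean. Without PP replicate 1 the value was -1.003, just past the cutoff of the study's methods. *TXN* and *PRDX1* are short, abundant transcripts with processed pseudogenes, and reads may have been divided among the copies, which leaves their values uncertain.

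**Figure D1:**
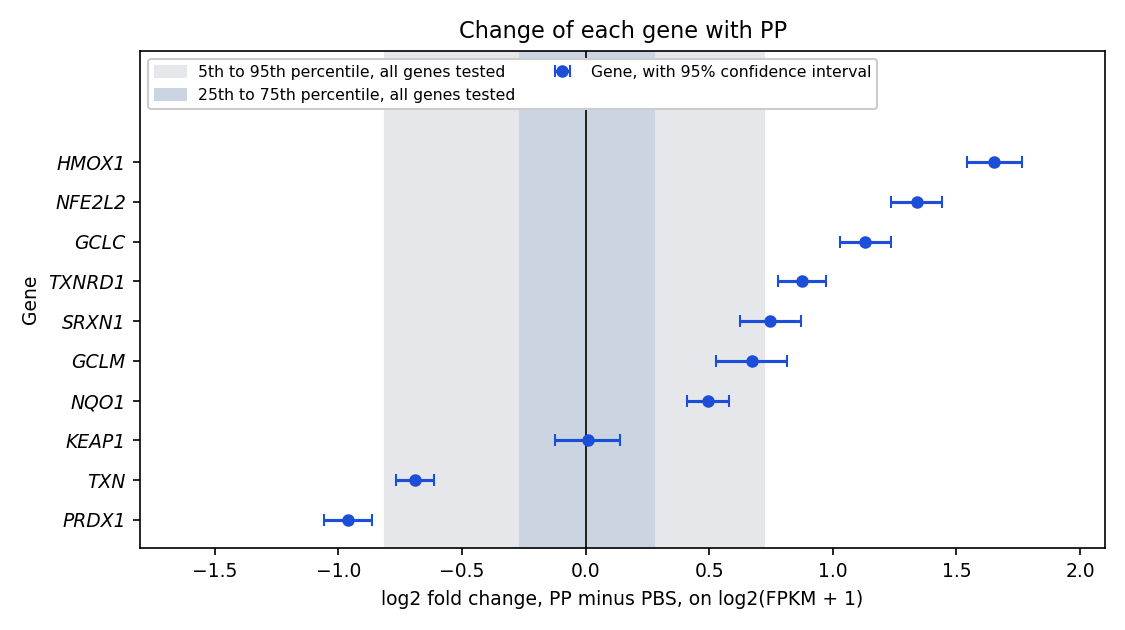
Log2 fold change with PP (x axis, PP minus PBS on log2(FPKM + 1)) of each of the 10 genes, with its 95% confidence interval, over bands that span the 25th to 75th and the 5th to 95th percentile of all 11726 genes tested. *HMOX1*, *NFE2L2*, *GCLC*, *TXNRD1* and *SRXN1* lie above the 95th percentile of 0.72, *PRDX1* lies below the 5th percentile of -0.81, and *KEAP1* lies at 0.01.

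The order of the levels changed with PP. With PBS the order by mean FPKM was *PRDX1*, *TXN*, *TXNRD1*, *KEAP1*, *NQO1*, *NFE2L2*, *GCLC*, *SRXN1*, *HMOX1* and *GCLM*. Only *KEAP1* and *NQO1* overlapped among the neighbours in that order. With PP the order was *TXNRD1*, *PRDX1*, *TXN*, *NFE2L2*, *NQO1*, *GCLC*, *KEAP1*, *HMOX1*, *SRXN1* and *GCLM*, and *TXNRD1* overlapped with *PRDX1* and *KEAP1* with *HMOX1*. Summed over the 10 genes, the PBS libraries came to 636 ± 15.0 FPKM (SD, n = 3) and the PP libraries to 654 ± 14.1 (SD, n = 3), a ratio of 1.03. The parts of that sum moved in opposite directions, in a split made after the values were seen. *TXN* and *PRDX1* together went from 392 ± 7.98 (SD, n = 3) to 215 ± 6.58 (SD, n = 3), and the other 8 genes from 244.3 ± 7.07 (SD, n = 3) to 439.9 ± 7.57 (SD, n = 3).

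Ratios of paired genes were taken within each library, since they do not depend on the scaling of the library. There were 5 such ratios, and the PP and PBS libraries were apart in all 5. Taken singly, 9 of the 10 genes and 75% of all genes tested were also apart, and no share was taken over other ratios. In *TXNRD1* to *TXN* and *SRXN1* to *PRDX1* a gene that rose is divided by a gene that fell. The direction of those ratios follows from the single genes. A two-sided exact permutation test gave p = 0.1 for each and 0.1 after adjustment over the 5, which is the smallest p that 3 libraries against 3 allow. The ratio of *KEAP1* to *NFE2L2* was 1.56, 1.90 and 1.89 with PBS and 0.762, 0.697 and 0.621 with PP, so the transcript of the inhibitor outnumbered that of the factor per kilobase with PBS and not with PP. The ratio of *TXNRD1* to *TXN* was 0.494, 0.544 and 0.549 with PBS and 1.67, 1.54 and 1.54 with PP, a log2 difference of 1.58. *SRXN1* to *PRDX1* had the largest shift of the 5, with 0.0602, 0.0671 and 0.0612 with PBS, 0.199, 0.222 and 0.214 with PP and a log2 difference of 1.75. *HMOX1* to *NQO1* went from 0.326 ± 0.00669 (SD, n = 3) to 0.758 ± 0.0395 (SD, n = 3). The smallest shift was that of *GCLM* to *GCLC*, from 0.288 ± 0.0257 (SD, n = 3) to 0.216 ± 0.0116 (SD, n = 3), with a log2 difference of -0.41.

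The other genes of the pathway were read from 8 lists, which together hold 106 genes, of which 93 passed the filter on low values. At an adjusted p under 0.05, 33 of the 93 were higher (35.5%) and 39 were lower (41.9%), beside 38.1% and 34.4% of all genes tested. Their median log2 fold change was -0.01. Past the cutoff of the study's methods were 7 of the 93 in the higher direction and 3 in the lower. Over all genes tested the shares past it were 2.24% higher and 2.93% lower. Of the called genes, *AKR1C2*, *CTH* and *BACH2* averaged under 1 FPKM with PBS, and *GSTP1* did so with PP. They passed the filter only through the group where they were higher, and the counts of calls include them. The share of genes that were higher was greatest among the partners and regulators of NRF2 (8 of 14) and the genes of haem and iron handling (5 of 10), beside 38.1% of all genes tested. The lists are short and were chosen with earlier results of these data known, and no difference between them was tested. Counts of calls in the lists below are to be read beside the shares of all genes tested, 38.1% higher and 34.4% lower.

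Among 14 partners and regulators of NRF2, 8 were higher and 3 were lower, with a median of 0.35. *NFE2L1*, which encodes a relative of NRF2 known for restoring proteasome genes, rose from 59.7 ± 1.06 (SD, n = 3) to 96.1 ± 2.21 FPKM (SD, n = 3), a log2 fold change of 0.68. *SQSTM1*, the gene of the autophagy receptor p62, which can draw KEAP1 away from NRF2, rose from 290 ± 3.05 (SD, n = 3) to 442 ± 10.7 (SD, n = 3), with a log2 fold change of 0.61. *BACH1*, whose protein competes with NRF2 at AREs and represses *HMOX1*, rose from 7.08 ± 0.572 (SD, n = 3) to 10.5 ± 0.212 (SD, n = 3), a log2 fold change of 0.52. Its relative *BACH2* rose from a low level, 0.588 ± 0.0202 (SD, n = 3), to 1.76 ± 0.139 (SD, n = 3). The log2 fold change of *BACH2* was 0.80 here and 1.58 with limma-voom on the recovered counts. The small MAF genes *MAFF* and *MAFG* rose by 0.61 and 0.48, and *MAFK*, at 0.09, did not pass (adjusted p = 0.175 from limma). *CUL3*, the scaffold of the ligase that KEAP1 serves, rose by 0.41. Its ring subunit gene *RBX1* fell by 0.48 on the log2 scale, *NFE2L3* fell by 0.92 and *DPP3*, which encodes a peptidase that binds KEAP1, fell by 1.29. Naming *MAFF*, *MAFG*, *MAFK* and *CUL3* was decided after their values were seen.

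Of the 19 tested genes of cystine supply and glutathione synthesis, turnover and use, 7 were higher and 10 were lower, with a median of -0.17. On the log2(FPKM + 1) scale the genes that were higher were led by supply. The rest of them were *CHAC1*, *CHAC2* and *GLRX2*, which rose by 0.62, 0.52 and 0.50 and were named after their values were seen. *SLC7A11*, the cystine carrier of the exchanger that imports cystine for glutathione, was at 3.82, 3.97 and 3.80 FPKM with PBS and 7.91, 7.81 and 8.42 with PP, a log2 fold change of 0.90 (standard error 0.05, adjusted p = 1.77e-07 from limma). Its partner chain *SLC3A2*, which also serves other amino acid carriers, rose from 157 ± 2.38 (SD, n = 3) to 428 ± 28.4 (SD, n = 3), a log2 fold change of 1.44. The transsulfuration enzyme genes *CTH* and *CBS* rose by 0.99 and 1.74, both from about 1 FPKM. With limma-voom on the recovered counts, which shrinks low genes less, *CTH* rose by 1.68 and *CBS* by 2.40. *CBS* was uneven among the PP libraries, at 8.73, 9.45 and 2.20 FPKM from 464, 494 and 125 counts, and all were above the PBS libraries, which held 36 to 72 counts. *GSR*, the gene of glutathione reductase, did not pass at 0.05 (adjusted p = 0.357 from limma), with 30.9 ± 1.05 FPKM (SD, n = 3) against 32.0 ± 1.40 (SD, n = 3). *GSS*, the gene of the enzyme that completes glutathione after glutamate-cysteine ligase, fell by 0.41 on the log2 scale and was named after its value was seen. The largest falls were those of *GPX2* at -1.17, *GGT1* at -1.02 and *GPX3* at -0.73, genes of glutathione peroxidases and of the enzyme that splits glutathione outside the cell.

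Of the 11 tested glutathione transferases, 7 were lower with limma and 0 were higher, also at an unadjusted p under 0.05 and with limma-voom on the recovered counts, and the median was -0.38. Over all genes tested, 34.4% were lower and 38.1% were higher at an adjusted p under 0.05. The 3 largest falls were *GSTP1* at -1.15, *MGST3* at -0.85 and *GSTO1* at -0.66. *MGST3*, a microsomal transferase gene, went from 57.5 ± 4.45 (SD, n = 3) to 31.5 ± 2.65 FPKM (SD, n = 3). *GSTP1* rests on few counts, with 45 to 52 per PBS library and 2, 36 and 0 in PP replicates 1, 2 and 3, and its log2 fold change was -3.80 with limma-voom on the recovered counts. Several genes of this family are similar in sequence, so a read may have been counted for a relative, and their values carry that uncertainty.

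In the rest of the thioredoxin and peroxiredoxin system, 5 of 15 tested genes were higher and 9 were lower, with a median of -0.23. The shares over all genes tested were 38.1% higher and 34.4% lower. The peroxiredoxin genes were all on the lower side, and naming them as a family was decided after their values were seen. *PRDX2*, the most abundant of them, fell from 456 ± 2.91 (SD, n = 3) to 277 ± 9.48 FPKM (SD, n = 3), a log2 fold change of -0.72 (standard error 0.03, adjusted p = 2.25e-08 from limma). *PRDX4* had a log2 fold change of -0.48, as did mitochondrial *PRDX3*, and *PRDX6* had one of -0.45. *PRDX5* had -0.07 and an adjusted p of 0.0402 from limma, and that call was lost in 8 of 13 alternatives, where its adjusted p went up to 0.128. Summed over the 6 peroxiredoxin genes, *PRDX1* included, the FPKM was 1206, 1222 and 1234 with PBS and 846, 843 and 810.2 with PP. *TXNIP*, whose protein binds and inhibits thioredoxin, was at 103.7, 100.2 and 103.6 FPKM with PBS and 57.0, 58.6 and 62.6 with PP, a log2 fold change of -0.78. *SESN2*, a stress-induced sestrin gene, had the largest rise of any gene of the 8 lists on the log2(FPKM + 1) scale, from 8.15 ± 0.488 (SD, n = 3) to 36.1 ± 0.710 FPKM (SD, n = 3), a log2 fold change of 2.02 (adjusted p = 3.42e-10 from limma). *SESN1* rose by 0.57 and *TXNL1* by 0.29, and the methionine sulfoxide reductase gene *MSRB1* fell by 0.54. The sestrin gene *SESN3*, named after its value was seen, fell by 0.23 on the log2 scale (adjusted p = 0.00248 from limma).

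The genes that remove superoxide and peroxide outside the thiol systems fell or did not pass. With limma 3 of the 4 tested were lower and 0 were higher, also at an unadjusted p under 0.05 and with limma-voom on the recovered counts. At an adjusted p under 0.05, 34.4% of all genes tested were lower and 38.1% higher. *SOD1*, the copper-zinc superoxide dismutase gene, fell from 197 ± 6.05 (SD, n = 3) to 127 ± 2.63 FPKM (SD, n = 3), a log2 fold change of -0.63. Catalase, encoded by *CAT*, had a log2 fold change of -0.64 and the mitochondrial dismutase gene *SOD2* one of -0.21.

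NADPH feeds thioredoxin reductase, glutathione reductase and NQO1. Of the 7 tested genes for its supply, 2 were higher, 2 were lower and 3 did not pass, with a median of 0.05. *IDH1*, the cytosolic isocitrate dehydrogenase gene, rose from 33.8 ± 0.957 (SD, n = 3) to 92.1 ± 3.33 FPKM (SD, n = 3), a log2 fold change of 1.42. *TKT*, the transketolase gene, rose from 216 ± 1.42 (SD, n = 3) to 372 ± 11.5 (SD, n = 3), a log2 fold change of 0.78. *TALDO1* fell by 0.48 on the log2 scale and *PGD* fell by 0.21.

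Of the 10 genes of haem and iron handling, 5 were higher and 1 was lower, with a median of 0.15. *FTH1*, the ferritin heavy chain gene, which stores the iron that haem breakdown sets free, was at 2438, 2387 and 2338 FPKM with PBS and 4737, 4950.3 and 4718 with PP, a log2 fold change of 1.01 (standard error 0.03, adjusted p = 1.27e-09 from limma). *FTL*, the light chain gene, was named after its value was seen and rose by 0.13. Ferritin genes have processed pseudogenes, and their values carry the same doubt as those of *TXN*. *ALAS1*, the first enzyme gene of haem synthesis, rose by 0.63 and *BLVRB*, a biliverdin reductase gene, by 0.59. The transferrin receptor gene *TFRC* fell by 0.17 on the log2 scale. *HMOX2*, the constitutive haem oxygenase gene, was named after its value was seen and rose by 0.32, against 1.65 for *HMOX1*.

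Of 13 tested genes of quinone and carbonyl detoxification and export, 6 were higher and 4 were lower, with a median of 0.10. *UGDH*, which makes UDP-glucuronate for conjugation, rose from 13.7 ± 0.625 (SD, n = 3) to 30.2 ± 0.872 FPKM (SD, n = 3), a log2 fold change of 1.08. *OSGIN1*, an oxidative stress-induced growth inhibitor gene, rose from 2.80 ± 0.339 (SD, n = 3) to 6.44 ± 0.447 (SD, n = 3), a log2 fold change of 0.97. The aldo-keto reductase gene *AKR1C2* rose from 0.863 ± 0.180 (SD, n = 3) to 3.24 ± 0.173 (SD, n = 3), a log2 fold change of 1.19 here and 1.92 with limma-voom on the recovered counts. Its neighbour *AKR1C3*, named after its value was seen, rose by 0.52 from a much higher level, and the genes of this cluster are near-identical in places, so reads may have been split between them. *NQO2*, the relative of *NQO1*, fell by 0.39 on the log2 scale, *AKR1A1* fell by 0.33 and the exporter gene *ABCC4* fell by 0.57, or by 0.92 with limma-voom on the recovered counts. *AKR1B10* and *ALDH3A1* were under 0.02 FPKM on average in either group and were named after their values were seen.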

How the data were processed

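RNA of 6 NCI-H660 libraries was measured by paired-end RNA-seq. The methods describe extraction of total RNA, from which mRNA was then enriched on oligo(dT) beads. The authors deposited FPKM values for 17177 gene symbols. The submitters' processing notes name fastp, HISAT2, HTSeq and GRCh38, whereas the methods name Bowtie on hg19, with RSEM for expression levels, Cufflinks for FPKM and HTSeq for counts, and which pipeline made the deposited table is not stated. The file holds no coordinates, and those given here come from RefSeq on GRCh38.p14.

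Whole counts were recovered for all 17177 genes (tolerance 0.01 of a count). limma 3.58.1 in R 4.3.3 (lmFit, eBayes with an intensity trend) was fitted to log2(FPKM + 1) of the 11726 genes whose mean FPKM reached 1, with Benjamini-Hochberg adjustment over all of them. Ratios were tested with scipy 1.17.1 in Python 3.11.15. Steps were tested on simulated data. Alternatives varied the pseudocount, filter, scaling, trend, replicate block, libraries and test (limma-voom on recovered counts).

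The genes, lists and tests were chosen with earlier results of these data known. Named were the 10 genes, up to 3 higher and 3 lower genes of each list by size of change, *TXNIP*, *SLC7A11*, *SQSTM1*, *BACH1*, *GSR* and the cell type markers. 1 listed gene, *UGT1A6*, was not analysed here, and some of the cell type markers and listed genes are not reported here by name.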

Additional observations from a re-analysis of the deposited data

How the results depend on the processing

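Under 13 alternatives, the same 7 of the 10 genes were higher and the same 2 lower at a limma adjusted p below 0.05. *KEAP1* was not called under any, and its log2 fold change of 0.01 changed sign with median-ratio size factors (-0.0052) and when PBS replicate 1, PP replicate 1 or PP replicate 2 was left out. It ran from -0.042 without PBS replicate 1 to 0.066 without PP replicate 3. When libraries were left out one at a time, 3 of the 10 genes were past the cutoff of the methods in the higher direction, and between 0 and 1 in the lower direction, the 1 being *PRDX1* without PP replicate 1. Among the genes of the 8 lists, 7 were past that cutoff in the higher direction, against 11 with a pseudocount of 0.1 and 12 with limma-voom on recovered counts, and 6 to 8 when libraries were left out one at a time. The lowest number in that direction under the other alternatives was 5. In the lower direction 3 were past it, against 5 with limma-voom on recovered counts, and 2 to 4 on leaving out single libraries. The smaller pseudocount and limma-voom shrink low genes less, by construction. With a filter at a mean FPKM of 5, which leaves fewer genes to test, 3 of 14 cystine and glutathione genes were higher, against 7 of 19, and 3 of 11 other thioredoxin system genes, against 5 of 15. Median-ratio scaling moved the median of all genes from 0.02 to 0.01.

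Libraries with the same replicate number did not deviate together (correlations of -0.21, -0.01 and -0.13 for numbers 1, 2 and 3). The labels do not say whether the numbers pair the samples, and 3 libraries per treatment cannot settle it. With the replicate number as a block, 7 of the 10 genes were higher and 2 were lower, and *PRDX5* lost its call (adjusted p = 0.117 from limma). The ratios kept their direction in all 35 repeats. With 3 libraries per treatment their exact test cannot pass 0.05, and at few counts, as for *GSTP1*, depth limits the value.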
